A study of Danio rerio with 6 samples.

Results

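The 8 genes described here encode 6 matrix metalloproteinases (mmp2, mmp9, mmp13a, mmp14a, mmp14b and mmp15a) and 2 tissue inhibitors of metalloproteinases (timp2a and timp2b). They were taken by gene symbol from the authors' deposited table of tested transcripts and followed by gene ID into the tables of the single libraries, where all 8 had a value, out of 19364 gene IDs with one. RNA had been sequenced from whole zebrafish embryos at 3 days post fertilization. The groups were wild type (3 libraries, titled TU) and csf1ra-/- (3 libraries), fish homozygous for a CRISPR/Cas9 knockout of csf1ra, the gene of a receptor for colony-stimulating factor 1. The labels mention 30 embryos, per genotype or per sample, with 1 μg of total RNA per library, and do not say how many mutant lines or clutches were used, so every p-value below measures the spread between these libraries, which may be technical.

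Matrix metalloproteinases are zinc-dependent enzymes that cut collagens and other proteins of the extracellular matrix, and each is made as an inactive proenzyme. In mammals the membrane-bound enzyme MMP14 activates the gelatinase MMP2 at the cell surface, and the inhibitor TIMP2 takes part on both sides: it holds pro-MMP2 to MMP14 and, in excess, blocks the enzyme. Embryos use these proteins while cartilage, fins, vessels and skin are being shaped, and leukocytes are a known source of MMP9.

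Values are gene totals in FPKM (fragments scaled by transcript length and by library size), made for each library as the larger of the summed values of a gene's listed first exons and of its listed last exons. Read totals were not given in the sources used here, so read depth is unknown, and the error given is that between libraries. Totals existed for 17291 to 17653 genes per library. The targeted gene csf1ra lay at 3.72 to 4.54 FPKM in wild type, was not listed in mutant replicates 1 and 2, and lay at 0.563 FPKM in mutant replicate 3. Mutant replicate 3 also stood apart on the second principal component of all genes, at -30.5 against -2.17 to 14.4 in the other libraries.

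None of the 8 genes passed the test for a difference between genotypes. The number called was 0 of 8 at an adjusted p under 0.05 in limma, with p-values adjusted over all 15475 genes tested, of which 2.42% were called (188 higher and 186 lower in the mutant). At an unadjusted p under 0.05, 2 of the 8 genes differed, timp2a (higher in the mutant) and mmp13a (lower), beside 15.9% of all genes tested. The values of the genotypes did not overlap for 3 of the 8, timp2a and mmp14a (higher, beside 12.1% of all genes tested) and mmp13a (lower, beside 10.2%), and 22.3% of all genes tested did not overlap in either direction. The median log2 fold change of the 8 genes was -0.02, and that of all genes tested was 0.02. Here and below a log2 fold change is mutant minus wild type of log2(FPKM + 1), which understates the change of low genes. In each list below, limma calls stand beside these 2.42% and counts at an unadjusted p under 0.05 beside these 15.9% of all genes. Genes given as without overlap stand beside these 22.3%. In bulk RNA, fewer cells of a type and less RNA per cell cannot be told apart.

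**Figure D1:**
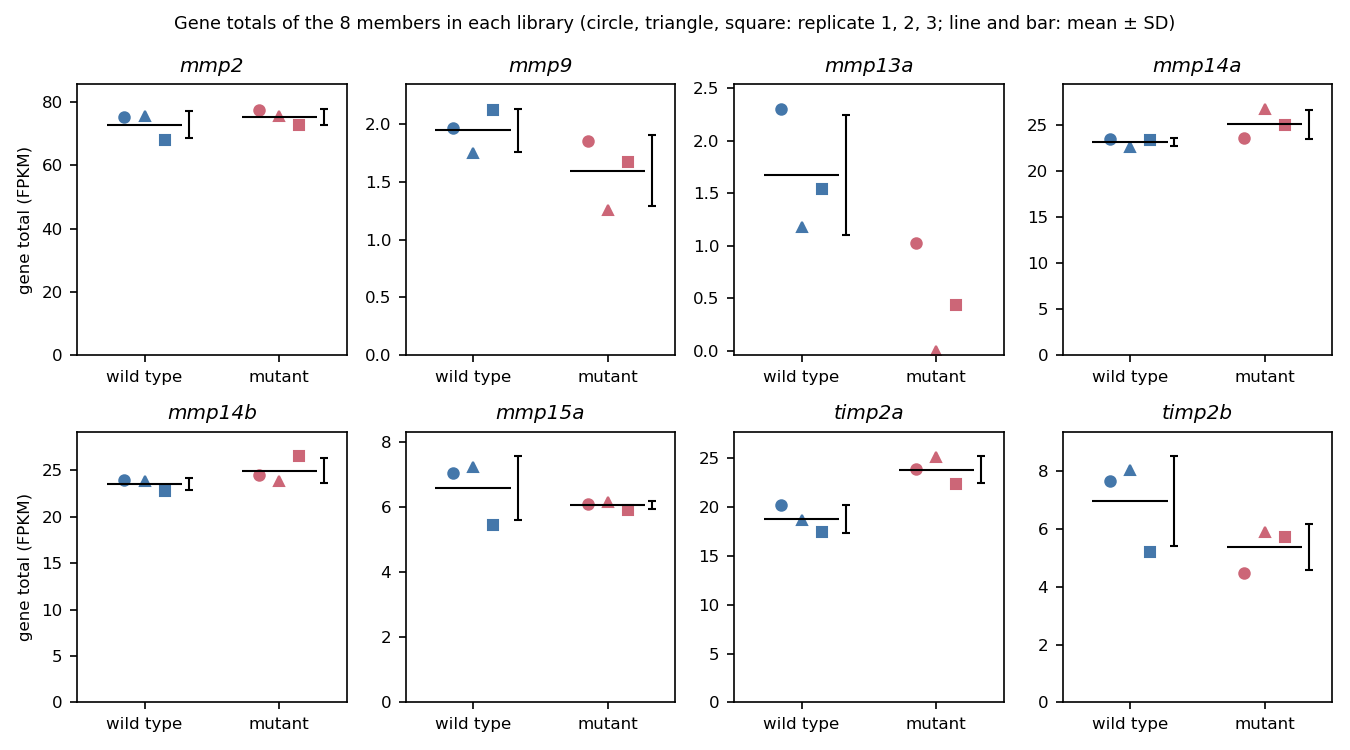
Gene totals in FPKM (vertical axes, each from about 0) of the 8 genes in 3 wild-type and 3 mutant libraries, with mean ± SD; no mean is drawn for mmp13a in the mutant, where replicate 2 did not list it and is plotted at 0. The mutant libraries of timp2a lie at 22.4 to 25.2 FPKM, all above the wild-type libraries at 17.4 to 20.2.

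The 8 genes spanned a wide range of levels. Averaged over the 6 libraries, mmp2 was the most abundant of the 8 at 74.1 FPKM, above 95.9% of the genes tested. The membrane-type genes mmp14b (24.2 FPKM) and mmp14a (24.1 FPKM) came next, and their ranges of 22.8 to 26.5 and 22.6 to 26.7 FPKM did not separate. timp2a followed at 21.3 FPKM. In wild type every timp2a value (17.4 to 20.2 FPKM) lay below every value of both mmp14 genes, whereas in the mutant its range (22.4 to 25.2 FPKM) overlapped with theirs. mmp15a (6.32 FPKM, at 5.46 to 7.23) and timp2b (6.18 FPKM, at 4.47 to 8.06) overlapped in the middle of the distribution of all genes. mmp9 (1.77 FPKM) and mmp13a (1.08 FPKM) were the lowest, above 12.5% and 2.90% of the genes tested, and their ranges overlapped.

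Of the inhibitors, timp2a (ENSDARG00000061226; GRCz10 chromosome 12, first to last exon 33889964 to 33934381, minus strand) had the smallest p of the 8 genes. It stood at 20.2, 18.7 and 17.4 FPKM in wild-type replicates 1, 2 and 3 and at 23.9, 25.2 and 22.4 FPKM in the mutant. All mutant libraries thus lay above all wild-type libraries, by 1.27 times on the means (18.8 ± 1.41 and 23.8 ± 1.38 FPKM, SD, n = 3 each). The log2 fold change was 0.33 (SE 0.09, 95% interval 0.13 to 0.53, limma adjusted p = 0.116), so the interval left out 0 while the adjusted p missed the threshold. Over 17 other settings the log2 fold change ran from 0.28 to 0.38 and the adjusted p from 0.0975 to 0.287. Only the pseudocount, the normalisation and a left-out library could move the log2 fold change. The settings of the filter, the fit and the kind of exon event left it at 0.33 by construction. The lowest adjusted p came without mutant replicate 3.

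In the authors' deposited table, which tests transcripts with its own method, the single timp2a transcript had an adjusted p of 0.000466, the value that goes with that table's smallest p-value of 5e-05. At least 1 tested transcript was significant for 3 of the 8 genes there (timp2a, timp2b and mmp14b), beside 30.1% of all genes in that table. The 2 columns of values in that table are named only as sample1 and sample2 and were not used, so no direction is given from it.

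The authors' deposited table places timp2a in 1 locus with sfxn2, a gene of a mitochondrial sideroflexin carrier, named here after its values were seen. sfxn2 starts on the plus strand at 33874082 and so points towards the last exon of timp2a. It rose to 14.1 ± 1.09 FPKM in the mutant from a wild-type mean of 7.97 ± 0.82 (log2 fold change 0.75, SE 0.10, limma adjusted p = 0.0139). No last exon of sfxn2 was listed, and whether the libraries kept strand is not given in the sources used here, so reads of the facing ends could not be told apart if the genes overlap. The part of sfxn2 in the timp2a values was not tested.

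The second inhibitor gene, timp2b (ENSDARG00000075261; chromosome 3, listed first exon 57595732 to 57595951, minus strand), leaned the other way without passing the test. It stood at 7.67, 8.06 and 5.20 FPKM for wild-type libraries, against 4.47, 5.91 and 5.74 FPKM in the mutant ones. Wild-type replicate 3 lay inside the mutant range, so the genotypes overlapped. Its log2 fold change was -0.31 (SE 0.17, 95% interval -0.71 to 0.09, limma adjusted p = 0.432). Without wild-type replicate 3 it was -0.48 (adjusted p = 0.21), and without mutant replicate 1 it was -0.20 (adjusted p = 0.722). Of its 2 transcripts in the authors' deposited table, 1 was significant (adjusted p = 0.0144) and the other was not (adjusted p = 0.414). The tables of the libraries list 1 first exon and no last exon for timp2b, so its total cannot be split by transcript. The authors' deposited table places timp2b in 1 locus with 1 other gene.

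Ratios between members were set out because timp2a and timp2b leaned in opposite directions. They were chosen after the values were seen and carry no test. The ratio of timp2a to timp2b within a library was 2.64, 2.32 and 3.35 for the wild-type replicates and 5.34, 4.26 and 3.90 for the mutant replicates. The ratio of mmp2 to timp2a was 3.71, 4.04 and 3.90 for wild-type libraries, against 3.25, 3.00 and 3.24 for mutant ones. Neither ratio overlapped between the genotypes, and timp2a, whose own values did not overlap, is part of both. Of single genes tested 22.3% did not overlap, and no such share was computed for ratios. The first ratio pairs genes picked for opposite leanings, which favours separation, and the timp2b total rests on 1 first exon. The ratio of mmp14a to mmp14b was 0.978, 0.950 and 1.03 for wild-type libraries against 0.961, 1.12 and 0.942 for mutant ones, with overlap. The 6 proteinases summed to 4.80, 4.94 and 5.45 times the 2 inhibitors in wild type and to 4.75, 4.3 and 4.69 times in the mutant, where the closest values of the genotypes (4.80 and 4.75) nearly met.

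**Figure D2:**
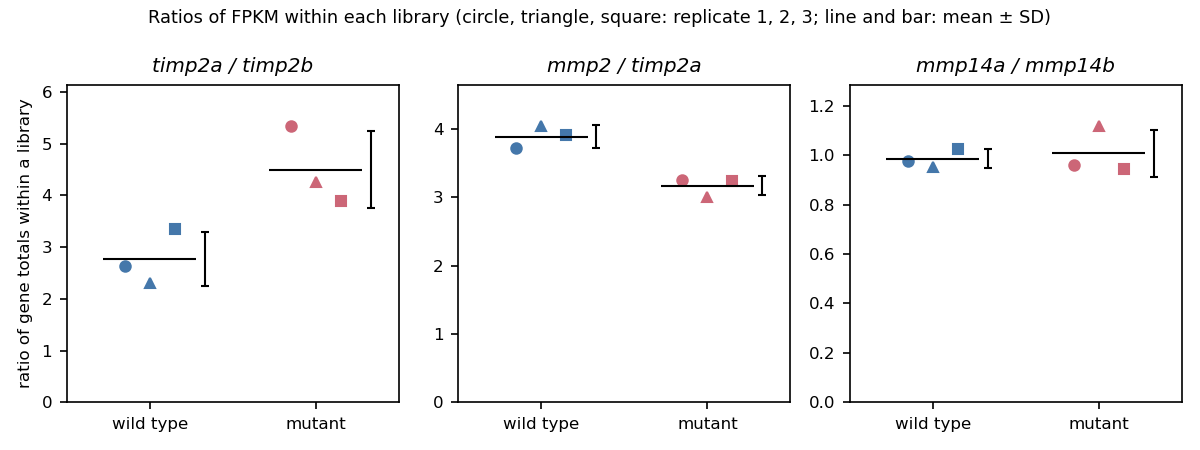
Ratios of gene totals in FPKM within each of the 6 libraries (vertical axes from 0), with mean ± SD over 3 libraries per genotype. The ratio of timp2a to timp2b lies at 2.32 to 3.35 in wild type and 3.90 to 5.34 in the mutant, while that of mmp14a to mmp14b overlaps. The ratios were chosen after the values were seen.

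The gelatinase gene mmp2 (ENSDARG00000017676; chromosome 7, 35138573 to 35161424, minus strand), whose enzyme cuts denatured collagen and type IV collagen, was nearly the same in all libraries. It stood at 75.1, 75.4 and 68.0 FPKM for wild-type libraries, against 77.5, 75.6 and 72.7 FPKM in the mutant ones. The genotypes overlapped, with a log2 fold change of 0.05 (SE 0.07, 95% interval -0.12 to 0.21, limma adjusted p = 0.796). As 45.3% to 47.6% of the summed FPKM of the 8 genes, mmp2 also held a like share of the family in every library.

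The second gelatinase gene, mmp9 (ENSDARG00000042816; chromosome 8, 24259900 to 24274708, plus strand), was low in whole embryos. It stood at 1.97, 1.75 and 2.12 FPKM for wild-type libraries, against 1.85, 1.26 and 1.67 FPKM in the mutant ones. Mutant replicates 2 and 3 lay below all wild-type libraries and mutant replicate 1 lay among them. The log2 fold change was -0.19 (SE 0.16, 95% interval -0.55 to 0.17, limma adjusted p = 0.613), and -0.09 without mutant replicate 2. The authors' deposited table did not call its tested transcript (adjusted p = 0.0894).

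The collagenase gene mmp13a (ENSDARG00000012395; chromosome 10, plus strand), whose enzyme cuts fibrillar collagen, had the greatest log2 difference of the 8 and the thinnest data. It stood at 2.30, 1.18 and 1.54 FPKM in wild type, at 1.03 FPKM in mutant replicate 1 and at 0.433 FPKM in mutant replicate 3, and was not listed in mutant replicate 2. All wild-type libraries lay above the listed mutant ones. The log2 fold change, with the missing listing entered as 0, was -0.88 (SE 0.30, 95% interval -1.57 to -0.20, limma adjusted p = 0.204). Adding 0.1 FPKM instead of 1 gave -2.13 (adjusted p = 0.314). mmp13a passed the filter of at least 1 FPKM in 3 libraries through the wild-type libraries and mutant replicate 1, and a gene that passes mainly through 1 genotype is bound to lean that way.

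The mmp13a total rests on 2 first exons, and no last exon was listed. The upstream first exon (38649905 to 38650040) stood at 1.69, 1.18 and 1.39 FPKM in wild type and at 0.666 FPKM in mutant replicate 1, and was not listed in mutant replicates 2 and 3. The downstream first exon (38667258 to 38667368) stood at 0.613 and 0.145 FPKM in wild-type replicates 1 and 3 and at 0.364 and 0.433 FPKM in mutant replicates 1 and 3. The value of mutant replicate 3 thus came from the downstream first exon alone, and that of wild-type replicate 2 from the upstream one alone. The authors' deposited table tested 2 of the 4 mmp13a transcripts, with adjusted p of 0.133 and 0.399.

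Leukocyte markers bear on mmp9 and mmp13a because leukocytes are a source of such enzymes. Of 10 tested macrophage markers, 3 fell in the mutant and 0 rose, beside 2.42% of all genes called in either direction. The chemokine gene ccl34b.1 dropped to 1.73 ± 0.040 FPKM from a wild-type level of 11.6 ± 2.25 (limma adjusted p = 0.000315). The others were lgals3bpb, a galectin-binding protein gene, and spi1a, a myeloid transcription factor gene. spi1a passed the filter through the wild-type libraries alone, so its direction was fixed by the filter. Leaving out any 1 wild-type library, or mutant replicate 2, reduced the called markers to 1, ccl34b.1, as did adding 0.1 FPKM instead of 1. A filter of 5 FPKM also left ccl34b.1 alone, since lgals3bpb and spi1a did not pass it and were not tested. Over 17 other settings 1 to 3 of the markers were called, with 3 called in 5 settings. The summed level of the list's 16 genes with a total was 47.9 to 52.1 FPKM in wild type and 25.9 to 26.1 FPKM in the mutant, and mpeg1.1 and c1qc had no total. ccl34b.1 is part of that sum. All 10 tested macrophage markers had a negative log2 fold change, from -2.20 to -0.01, beside 7242 of all 15475 genes tested. Like spi1a, cxcr3.2 passed the filter through the wild-type libraries alone, so its negative sign was fixed by the filter too. Among the 7 not called, csf1rb had means of 6.80 ± 0.79 FPKM (wild type) and 3.68 ± 1.05 FPKM (mutant). mfap4 was at 7.55 ± 2.58 and 6.69 ± 0.77 FPKM. Of the neutrophil markers 0 of 6 were called in limma (2 at an unadjusted p under 0.05), and the 8 with a total summed to 81.0 to 92.1 FPKM in wild type and 82.0 to 83.1 FPKM in the mutant. Those 2 lay apart in opposite directions without overlap: npsn, an astacin-like proteinase gene, had means of 9.59 ± 1.19 FPKM for wild type and 6.68 ± 0.66 FPKM for the mutant (adjusted p = 0.116), and nccrp1 was at 11.6 ± 0.49 and 14.2 ± 0.30 FPKM (adjusted p = 0.144). mpx, the neutrophil peroxidase gene, was at 6.82 ± 1.16 and 6.86 ± 0.55 FPKM. lyz, the largest part of the neutrophil sum, was at 50.2 ± 5.13 and 44.5 ± 1.58 FPKM. The authors' deposited table called 5 of 7 neutrophil and 11 of 12 macrophage markers, beside 30.1% of all genes in that table. lect2l, csf3r, cxcr1 and cxcr2 had no total. The part of these cells in the mmp9 and mmp13a values was not tested.

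The membrane-type gene mmp14a (ENSDARG00000002235; chromosome 7, 23853132 to 23878513, minus strand) was slightly higher in each mutant library. It stood at 23.5, 22.6 and 23.4 FPKM for wild-type libraries, against 23.6, 26.7 and 24.97 FPKM in the mutant ones. The genotypes did not overlap, but the lowest mutant value (23.6) lay next to the highest wild-type value (23.5). Its log2 fold change of 0.11 (SE 0.08, 95% interval -0.07 to 0.29, limma adjusted p = 0.533) did not pass, and the authors' deposited table, where its locus holds 12 other genes, did not call it (adjusted p = 0.133).

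Its paralogue mmp14b (ENSDARG00000008388; chromosome 2, 38178990 to 38201313, plus strand) was called in the authors' deposited table and not by limma. It stood at 24.0, 23.8 and 22.8 FPKM for wild-type libraries, against 24.5, 23.9 and 26.5 FPKM in the mutant ones. The genotypes overlapped and their means differed by 1.06 times, with a log2 fold change of 0.08 (SE 0.07, 95% interval -0.09 to 0.26, limma adjusted p = 0.648). The adjusted p of its transcript in the authors' deposited table was lower, at 0.0171. The 2 tests use different models and units, and which of these sets the call was not tested.

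mmp14b had 3 first-exon forms, against 2 for mmp13a and 1 for each other member. They begin at the same base, 38178990, and end at different bases, so the first exon was 466, 194 or 180 bases long. The 466-base form held 59.9%, 60.7% and 54.7% of the summed first-exon FPKM in wild type, against 64.0%, 67.1% and 57.7% in the mutant. The 194-base form held 31.7%, 39.3% and 45.3% in wild type, with 36.0%, 32.9% and 42.3% in the mutant, and the 180-base form was listed in wild-type replicate 1 alone, at 8.39%. The shares of the forms overlapped between the genotypes.

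**Figure D3:**
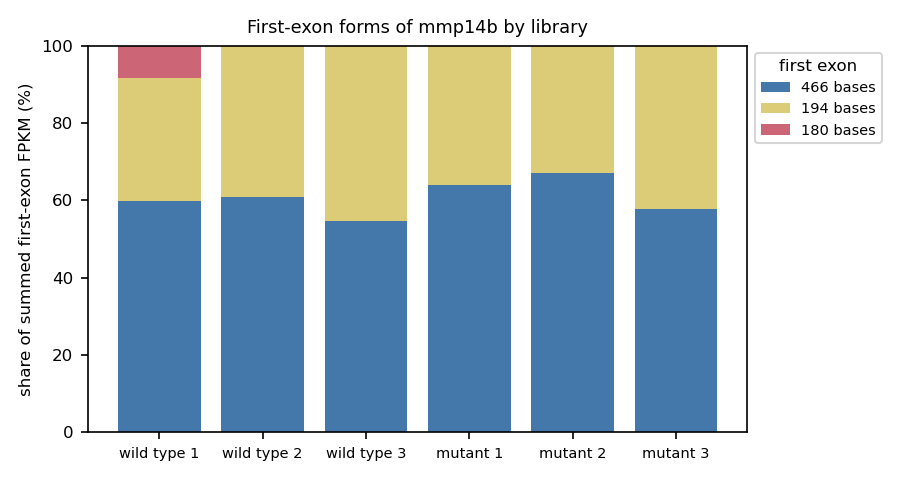
Share (%) of the summed first-exon FPKM of mmp14b held by each first-exon form, by length, in the 3 wild-type and 3 mutant libraries. The 466-base form holds 54.7% to 67.1% in every library.

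The membrane-type gene mmp15a (ENSDARG00000051962; chromosome 25, 17462999 to 17483301, minus strand) had wild-type values of 7.05, 7.23 and 5.46 FPKM and mutant values of 6.10, 6.16 and 5.92 FPKM. The mutant libraries all lay inside the wild-type range. Its log2 fold change was -0.09 (SE 0.12, 95% interval -0.37 to 0.19, limma adjusted p = 0.755), and -0.21 without wild-type replicate 3, the lowest library. The authors' deposited table did not call it either (adjusted p = 0.0927). Within 1 Mb of mmp15a, 4 of 36 other tested genes were called higher in the mutant (cpa4, cpa5, atp6v1e1a and borcs5) and 1 lower (cav2), named after their values were seen, beside 2.42% of all genes called in either direction. borcs5 was not listed in wild type and passed the filter through the mutant alone, so its direction was fixed by the filter. In windows of the same size, the counts called were 3 of 24 at timp2b (hid1a and pycr1a higher, lgals3bpb lower; pycr1a likewise not listed in wild type), 2 of 36 at timp2a (sfxn2 and mfsd13a, both higher), 2 of 25 at mmp13a, 1 of 50 at mmp14a and 0 at mmp2, mmp9 and mmp14b.

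Among other genes of the same families, limma called none. Of the 19 other matrix metalloproteinase genes listed, 9 had a total and 8 passed the filter, of which 0 were called (0 at an unadjusted p under 0.05). Their log2 fold changes lay between -0.27 and 0.28, with a median of -0.0026. mmp23bb had means of 3.33 ± 0.63 FPKM (wild type) and 4.2 ± 0.051 FPKM (mutant; adjusted p = 0.383), and mmp28, the gene of epilysin, was at 2.84 ± 0.66 and 2.15 ± 0.23 FPKM (adjusted p = 0.47). In the authors' deposited table those 2 were the significant genes of the 9 tested, beside 30.1% of all genes there. Their adjusted p in that table was 0.0112 for mmp23bb and 0.000466 for mmp28. Of 6 other inhibitor genes 1 was tested here, reck, whose product is a membrane-anchored inhibitor of several of these enzymes. Its means were 29.4 ± 2.56 FPKM for wild type and 23.5 ± 3.64 FPKM for the mutant (log2 fold change -0.32, SE 0.12, adjusted p = 0.267), with overlap, and it was significant in the authors' deposited table (adjusted p = 0.000466). The other inhibitor gene tested there, a2ml, an alpha-2-macroglobulin-like gene, was significant too (adjusted p = 0.0037).

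**Figure D4:**
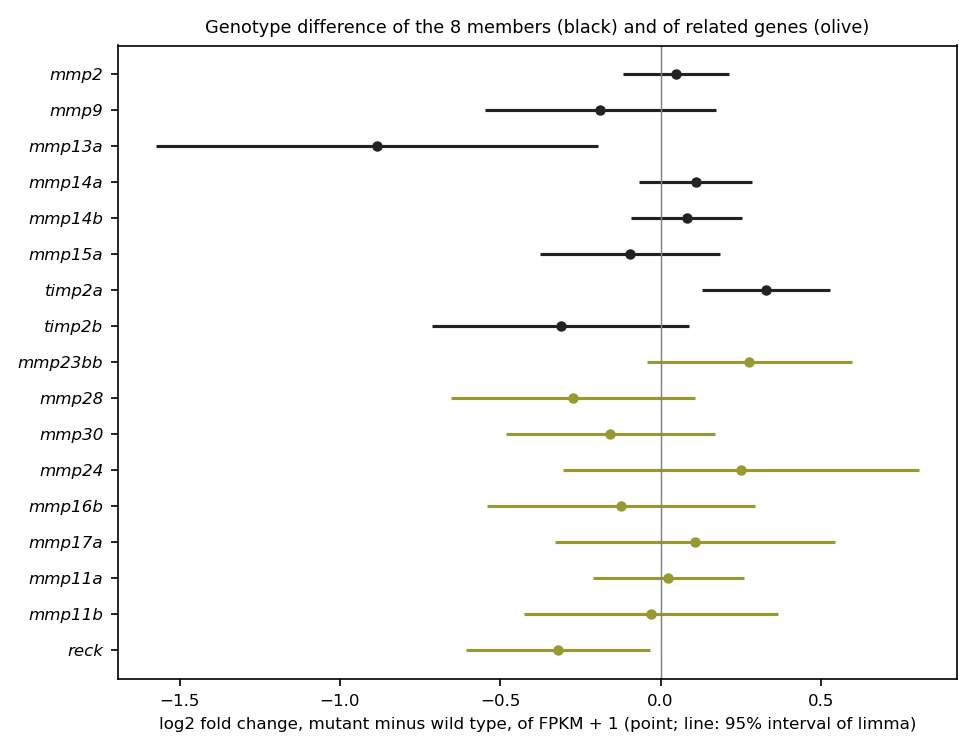
Log2 fold change (horizontal axis, mutant minus wild type, of FPKM + 1) with the 95% interval of limma for the 8 genes (black) and for 9 related proteinase and inhibitor genes (olive). Among the 8, the intervals of timp2a (0.13 to 0.53) and mmp13a (-1.57 to -0.20) leave out 0, and no gene shown had an adjusted p under 0.05.

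Related proteinase families gave 1 call in limma. adam22, a member of the ADAM family whose product lacks proteinase activity and acts at synapses, rose to 8.57 ± 1.43 FPKM in the mutant from a wild-type mean of 4.72 ± 0.67 (log2 fold change 0.74, SE 0.15, limma adjusted p = 0.0475). It was 1 of 10 tested ADAM genes (2 at an unadjusted p under 0.05), with a list median of -0.13. The call was lost in 14 of 17 other settings, among them leaving out any single library. The second ADAM gene at an unadjusted p under 0.05, adam10b, leaned the other way without overlap. It had means of 22.0 ± 3.37 FPKM for wild type and 17.6 ± 0.98 FPKM for the mutant (limma adjusted p = 0.272). None of 11 ADAMTS genes was called in limma (1 at an unadjusted p under 0.05: adamts1, at 4.06 ± 0.23 and 2.84 ± 0.43 FPKM, adjusted p = 0.187). None of 5 proprotein convertase genes, whose products cut proenzymes such as that of MMP14, was called in limma (1 at an unadjusted p under 0.05). pcsk6 had the smallest p, with means of 2.57 ± 0.36 FPKM for wild type and 3.43 ± 0.30 FPKM for the mutant, without overlap (adjusted p = 0.311). furina stood at 2.60 ± 0.44 and 3.21 ± 0.018 FPKM and furinb at 5.31 ± 0.85 and 4.21 ± 0.058, leaning in opposite directions without overlap (adjusted p = 0.448 and 0.374). Of the 5 convertase genes, 2 were thus higher and 1 lower without overlap, beside 12.1% and 10.2% of all genes tested. The authors' deposited table called 6 of 13 ADAM, 2 of 13 ADAMTS and 3 of 5 convertase genes, beside 30.1% of all genes in that table.

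The plasminogen system, another route to proteinase activation, had 0 of 7 genes called in limma (2 at an unadjusted p under 0.05) and a median log2 fold change of 0.32, beside 0.02 for all genes. serpinf2b, an antiplasmin gene, had means of 18.6 ± 1.05 FPKM for wild type and 23.7 ± 1.05 FPKM for the mutant, without overlap (log2 fold change 0.33, SE 0.08, adjusted p = 0.0867), and plg, the plasminogen gene, was at 15.5 ± 1.75 and 14.8 ± 0.46 FPKM (adjusted p = 0.813). Without mutant replicate 3, serpinf2a, the other antiplasmin gene, was called higher. Of the AP-1 transcription factor genes, whose products bind the promoters of several mammalian metalloproteinase genes, 4 were tested and 0 called (1 at an unadjusted p under 0.05). Of inflammatory genes 0 of 5 were called in limma (0 at an unadjusted p under 0.05), and of osteoclast markers 0 of 7 (likewise 0). In the authors' deposited table, beside 30.1% of all genes there, 2 of 7 plasminogen system and 4 of 9 AP-1 genes were significant. Of inflammatory genes 1 of 5 and of osteoclast markers 1 of 6 were significant there.

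The matrix proteins these enzymes cut were set beside them. Of 13 tested fibrillar collagen genes, 0 were called in limma (6 at an unadjusted p under 0.05) and 12 had a negative log2 fold change, with a median of -0.38. The genotypes did not overlap, lower in the mutant, for 7 of the 13, beside 10.2% of all genes tested. col1a1b had means of 254 ± 13.7 FPKM for wild type and 188 ± 19.5 FPKM for the mutant (log2 fold change -0.43, SE 0.09, adjusted p = 0.0575), and col1a1a stood at 653 ± 90.1 and 409 ± 79.9 FPKM (-0.68, SE 0.16, adjusted p = 0.0878). Fibrillar collagen genes were significant in the authors' deposited table in 12 of 14 cases, beside 30.1% of all genes in that table. Of 26 tested basement membrane and matrix glycoprotein genes 0 were called in limma (2 at an unadjusted p under 0.05), with a median of 0.01. The authors' deposited table called 10 of 27 such genes.

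**Figure D5:**
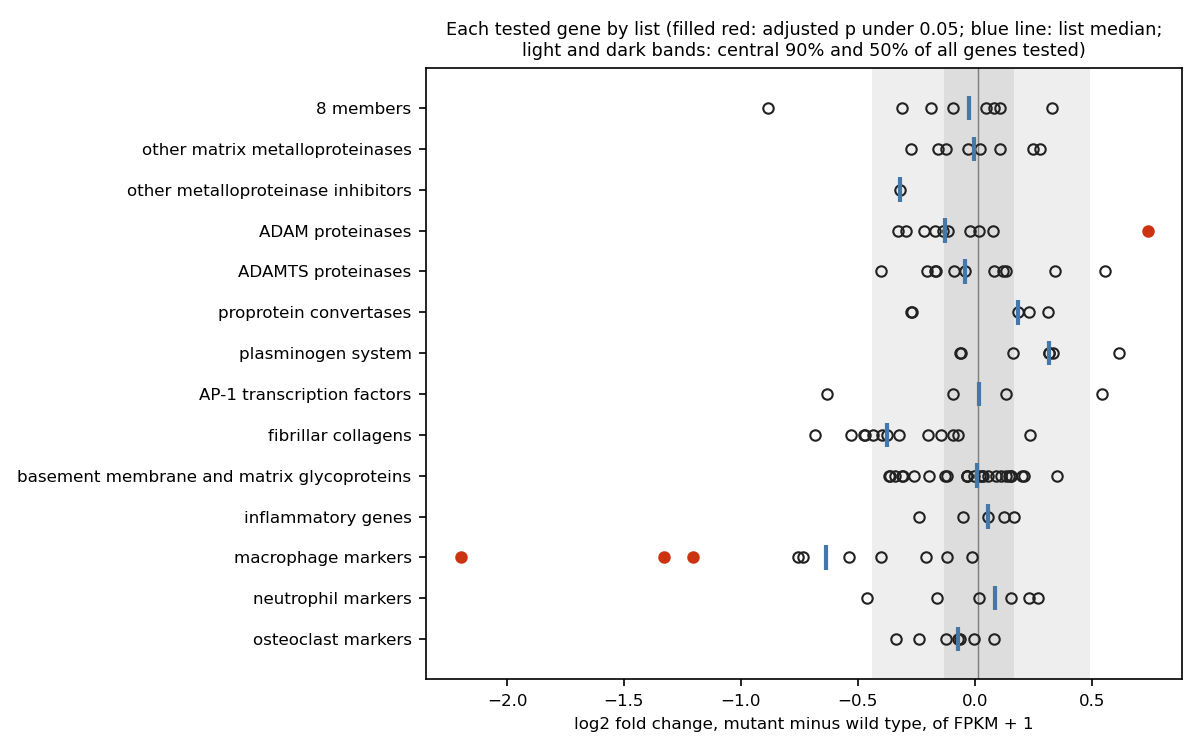
Log2 fold change (horizontal axis, mutant minus wild type, of FPKM + 1) of each tested gene by list, with list medians as blue lines, genes at an adjusted p under 0.05 in red, and bands for the central shares of all genes tested. The 8 genes spread on both sides of 0 from -0.88 to 0.33 with none in red, the fibrillar collagens have a median of -0.38, and 3 macrophage markers are in red.

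3 genes followed timp2a most closely across the 6 libraries, by the root-mean-square difference between centred log2 profiles among 8871 genes of at least 5 FPKM listed in all libraries. They were gk5 (0.0267), a glycerol kinase-like gene, slc7a8a (0.0321), an amino acid transporter gene, and prkcda (0.0403), a protein kinase C gene. slc7a8a stood at 19.2, 17.4 and 16.9 FPKM in wild type and at 23.7, 23.5 and 21.1 FPKM in the mutant. The 3 genes were picked for likeness over these same libraries, so a shared order of libraries follows from that choice. None of these 3 was called (limma adjusted p = 0.154, 0.107 and 0.233).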

How the data were processed

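RNA-seq values came from 3 wild-type and 3 csf1ra mutant libraries. Each library's deposited table gives FPKM, per its header, for 20 types of transcript-structure event and leaves out events at 0. The submitters' processing notes name the build GRCz10 and, without roles or settings, HISAT2 2.0.1, Trimmomatic 0.30, SAMtools 0.1.18, Cufflinks 2.2.1, HTSeq 0.6.1 and DESeq. A second deposited table holds the p-value and adjusted p-value that the authors computed per transcript, and 2 columns of values in it were not used, since their names match no sample. Gene symbols came from that table, for 19363 of 19364 gene IDs.

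Gene totals (the larger of summed first-exon and summed last-exon FPKM, 0 where not listed) were compared with limma 3.58.1 in R 4.3.3 on log2(FPKM + 1), with trend and robust options, no term but genotype, two-sided, with a filter of at least 1 FPKM in at least 3 libraries and Benjamini-Hochberg adjustment over 15475 genes, at a threshold of 0.05. The precision depth allows cannot be stated. The procedure was also run on simulated data with independent normal noise. Shifts were put only into genes at about 5 FPKM or more, so the recovery of changes in lower genes such as mmp9 and mmp13a was not tested. The 8 genes, the gene lists and the alternatives were chosen with earlier results of these data known. Named by rule were the 8 genes, csf1ra, and the 3 genes nearest to the member of smallest p. Also by rule came called list members, or up to 4 of smallest p in a list with none called. plg, mpx, a2ml, csf1rb, mfap4, cxcr3.2 and adam10b were chosen after their values were seen, as were the ratios and the neighbours. The alternatives were pseudocounts of 0.1 and 0.5, no filter and one of 5 FPKM, quantile normalisation, median-ratio rescaling, no trend and robust options, the replicate number as a block, each library left out, one kind of exon event (first or last) alone, and genes listed in all 6 libraries. Figures were drawn with matplotlib 3.10.9 in Python 3.11.15.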

Additional observations from a re-analysis of the deposited data

How the results depend on the processing

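None of the 8 genes was called in any of the 17 other settings in which it could be tested: mmp13a was not tested with last-exon events alone, with a filter of 5 FPKM or among genes listed in all 6 libraries, timp2b not with last-exon events alone, and mmp9 not with a filter of 5 FPKM. Their directions held in these settings, except that the log2 fold change of mmp2, between -0.00036 and 0.073 when 1 library was left out, was below 0 without wild-type replicate 3. Several settings could not change a direction. The filters, the fit options, the replicate block and the restriction to genes listed in all 6 libraries leave a log2 fold change as it is. One kind of exon event alone does so too for mmp2, mmp14a, mmp14b, mmp15a and timp2a, whose first- and last-exon sums were equal. Leaving out 1 library gave log2 fold changes of 0.28 to 0.38 for timp2a, -0.48 to -0.20 for timp2b and -1.14 to -0.63 for mmp13a. The count of all called genes was 374 of 15475 tested. It was 232 of the 15015 genes listed in all 6 libraries, a set without genes such as csf1ra. With 1 library left out it was 133 to 450. The counts were 138, 138 and 152 without wild-type libraries 1 to 3, and 145, 133 and 450 without mutant libraries 1 to 3. Same-numbered libraries showed no sign of deviating together (r across genes of -0.027, 0.0027 and 0.0064), and differently numbered ones lay between -0.046 and 0.046. With so few libraries this cannot settle whether a clutch or batch was shared. With the replicate number as a block 115 genes were called and 0 of the 8. The cause of that lower count was not tested. Without read totals, what depth limits cannot be stated.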

Other observations

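Markers of tissues in which such proteinases act were also measured. limma called 0 of 9 fibroblast and mesenchyme markers (1 at an unadjusted p under 0.05), 0 of 9 endothelial markers (3), 0 of 6 notochord markers (0) and 0 of 10 cartilage and bone markers (3). Of 9 epidermis markers 1 was called (4 at an unadjusted p under 0.05). Their log2 fold changes were positive for 4 and negative for 5, with a median of -0.07. The called gene was agr1, an anterior gradient gene of secretory cells. It rose to 48.1 ± 9.32 FPKM in the mutant from a wild-type mean of 12.3 ± 1.28 (log2 fold change 1.87, SE 0.14, limma adjusted p = 0.000728). Of 9 genes in the list for xanthophores, the yellow pigment cells, which are known to need csf1ra, 5 fell in the mutant and 0 rose. These were gch2, a pteridine synthesis gene (105 ± 5.58 to 13.2 ± 2.89 FPKM), aox5, slc2a11b, slc2a15a and slc2a15b. aox5, below 1 FPKM in every mutant library, passed the filter through the wild-type libraries alone, so its direction was fixed by the filter. Over 17 other settings 4 or 5 genes of the xanthophore list were called lower. The authors' deposited table called 7 of 13 cartilage and bone, 6 of 10 epidermis and 7 of 9 xanthophore markers. It called 3 of 11 fibroblast and mesenchyme, 3 of 10 endothelial and 3 of 6 notochord markers, beside 30.1% of all its genes.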
